A study of Mus musculus with 2 samples.

Results

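The genes of glycolysis, glycogen metabolism, sugar and lactate transport and the pentose phosphate pathway were examined in differentiated C2C12 cells carrying an active estrogen receptor or a control protein. A list of 39 genes was used, and 34 of them had a probe set on the array that the platform's annotation assigns to that gene alone. Of these, 33 had a signal above the detection floor on at least 1 array and are called measured. The table holds 19938 genes named in this way, and 13556 of them were measured. Gapdh, Gpi1, Eno1, Pfkfb1 and G6pdx had no single-gene probe set and were not analysed here, and Phkg1, the catalytic subunit of muscle phosphorylase kinase, was below the floor on both arrays (log2 signals of 4.33 and 4.20).

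C2C12 is a mouse myoblast line whose cells stop dividing and fuse into myotubes when serum is withdrawn. According to the protocols, they grew in 10% fetal bovine serum, differentiated over 7 days in 2% horse serum, and were then exposed to virus for 48 h (30 infectious units per cell). The Ad-caERα culture received an adenovirus for a constitutively active estrogen receptor α and the Ad-DsRed culture an adenovirus for the red fluorescent protein DsRed, with 1 array for each. Both cultures were infected, so no uninfected cells were compared, and the labels state neither the promoter of the vectors nor the species or the part of the receptor that was carried. The difference given throughout is Ad-caERα minus Ad-DsRed on the log2 scale. With 1 array per group there is no test, no p-value and no standard error. Within a culture, fewer cells of a type and less RNA per cell cannot be told apart.

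Glycolysis splits glucose into pyruvate in the cytosol and yields ATP without oxygen, and skeletal muscle feeds it from blood glucose and from its own glycogen. The pentose phosphate pathway leaves glycolysis at glucose 6-phosphate. Its oxidative arm makes NADPH, and its non-oxidative arm interconverts sugar phosphates, among them sedoheptulose 7-phosphate, and returns them to glycolysis. Muscle carries its own isozymes for several of these steps, such as Pfkm, Pgam2, Eno3 and Pygm.

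The labelled cell type and the vector were checked on the same arrays. The receptor's own gene, Esr1, read 7.38 with Ad-DsRed and 8.44 with Ad-caERα (log2 signals). All 16 myotube markers were measured, among them Myog, Ckm and Acta1. Their signals summed to 39647 in Ad-DsRed and 37867 in Ad-caERα on the linear scale, with 13 of 16 lower in Ad-caERα and a median difference of -0.099. The sums that follow, in the same order, take in every listed marker with a probe set, also those below the floor. Of 5 fibroblast markers 5 were measured (10960.0 and 11221), of 8 leukocyte markers 2 (218 and 223), of 5 endothelial markers 2 (211 and 204), of 5 adipocyte markers 2 (144 and 123) and of 5 hepatocyte markers 1 (153 and 136). Ptprc, Cdh5, Adipoq and Alb were below the floor on both arrays. The measured markers of these last 4 types were Cd68 and Cd3e, Tek and Vwf, Plin1 and Cidec, and Apoa1. The brightest of them were Tek (6.73 and 6.60) and Cd68 (6.38 and 6.62). Among the 16 myotube markers 2 were at least 1.3-fold lower, Myh4 (-0.48) and Ttn (-0.42), and 0 were higher by as much. Over all measured genes the shares were 4.34% and 5.08%. The shift of the myotube markers lay opposite in direction to that of the sugar metabolism genes, and its part in the differences below was not tested.

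Sugar metabolism genes were mostly slightly higher in the Ad-caERα array. Of the 33 measured members, 30 had a difference above 0 and 3 below it (Slc16a1, Pgam2 and Pfkm), against 50.2% of all measured genes above 0. The members' median difference was 0.17, against 0.0017 over all measured genes. Members were called by size alone, at 1.3-fold or more: 5 were higher (Shpk, Pgm1, Aldoc, Pfkl and Pgls) and 0 were lower. The same rule was met upwards by 5.08% of all measured genes and downwards by 4.34%. Of the 33, 19 lay above the upper quartile of all measured genes (0.14) and 0 lay below the lower quartile (-0.13). At 1.2-fold 10 members were higher and 0 lower (11.1% and 10.4% of all measured genes), and at 1.5-fold 2 were higher and 0 lower (1.82% and 0.885%). At 2-fold only Shpk was called, against 0.590% of all measured genes called higher and 0.0959% lower.

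The spread of single probe sets can be read from the arrays themselves. Probe sets of the same gene scattered around their mean difference with a pooled SD of 0.13, over 754 genes. Over the 1212 probe sets for smell and pheromone receptors, taken as silent in these cells, the SD of the difference was 0.22. These values bear on single genes and not on the members' median, and 28 of 33 members stayed under the 1.3-fold rule. The members are also bright: their median mean log2 signal was 9.64, against 8.15 over all measured genes. Among the 2846 measured genes brighter than 9.64 the median difference was 0.016 and 53.7% were above 0, while 14 of the 16 members in that range were above 0, with a median of 0.12. Centring each array on its median signal over measured genes, which moved the median of all genes by -0.036, left 27 members above 0 and placed Slc2a1, Hk1 and Pfkp below it. Subtracting a loess curve of the difference on mean level placed Hk1 below 0 and left 29 members above.

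**Figure D1:**
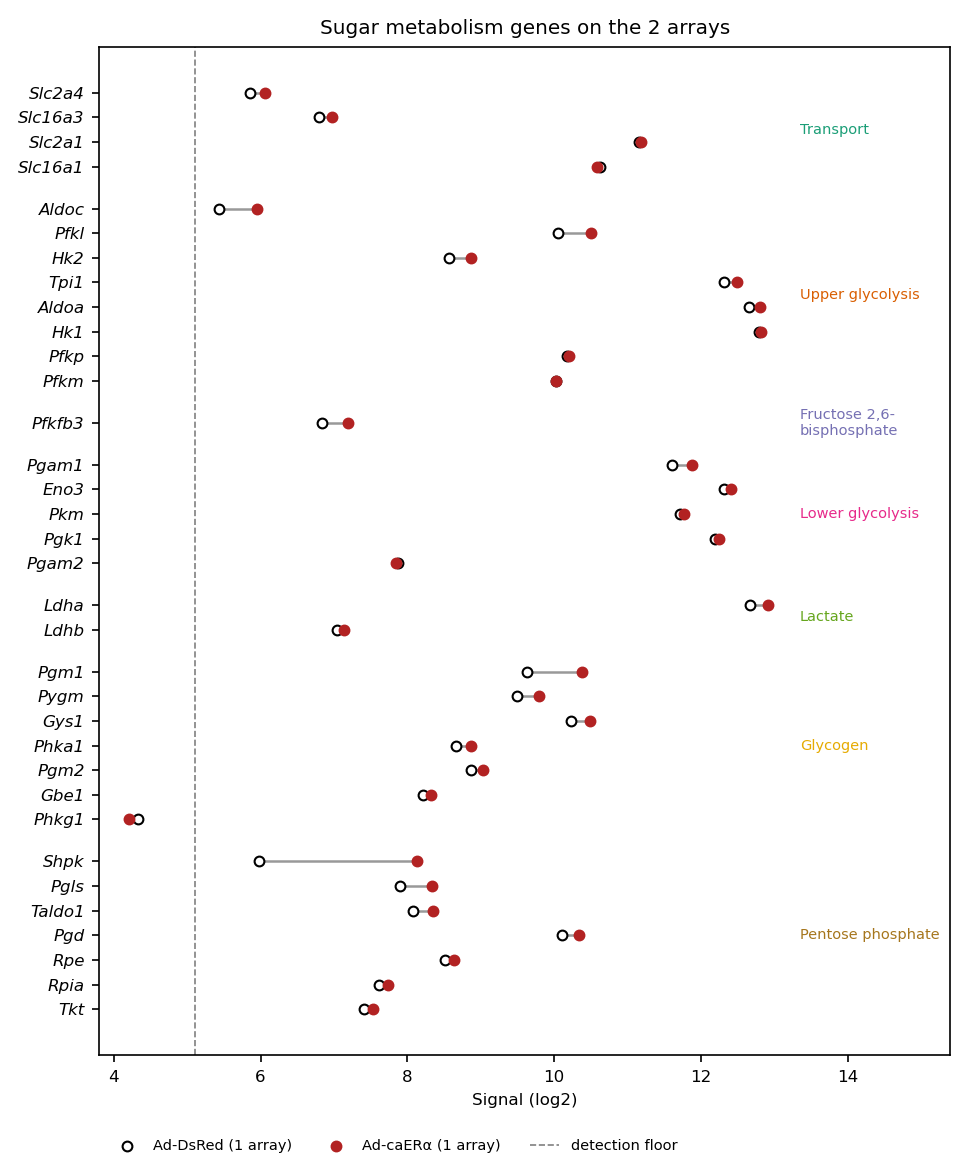
Log2 signal (x axis) of each of the 34 listed genes with a single-gene probe set in the Ad-DsRed array (open circles) and the Ad-caERα array (filled circles), grouped by role, 1 array per group, with the detection floor as a dashed line. The grey segment of Shpk, from 5.99 to 8.13, is the longest, and Phkg1 alone lies below the floor; signals of different genes are not comparable with each other.

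**Figure D2:**
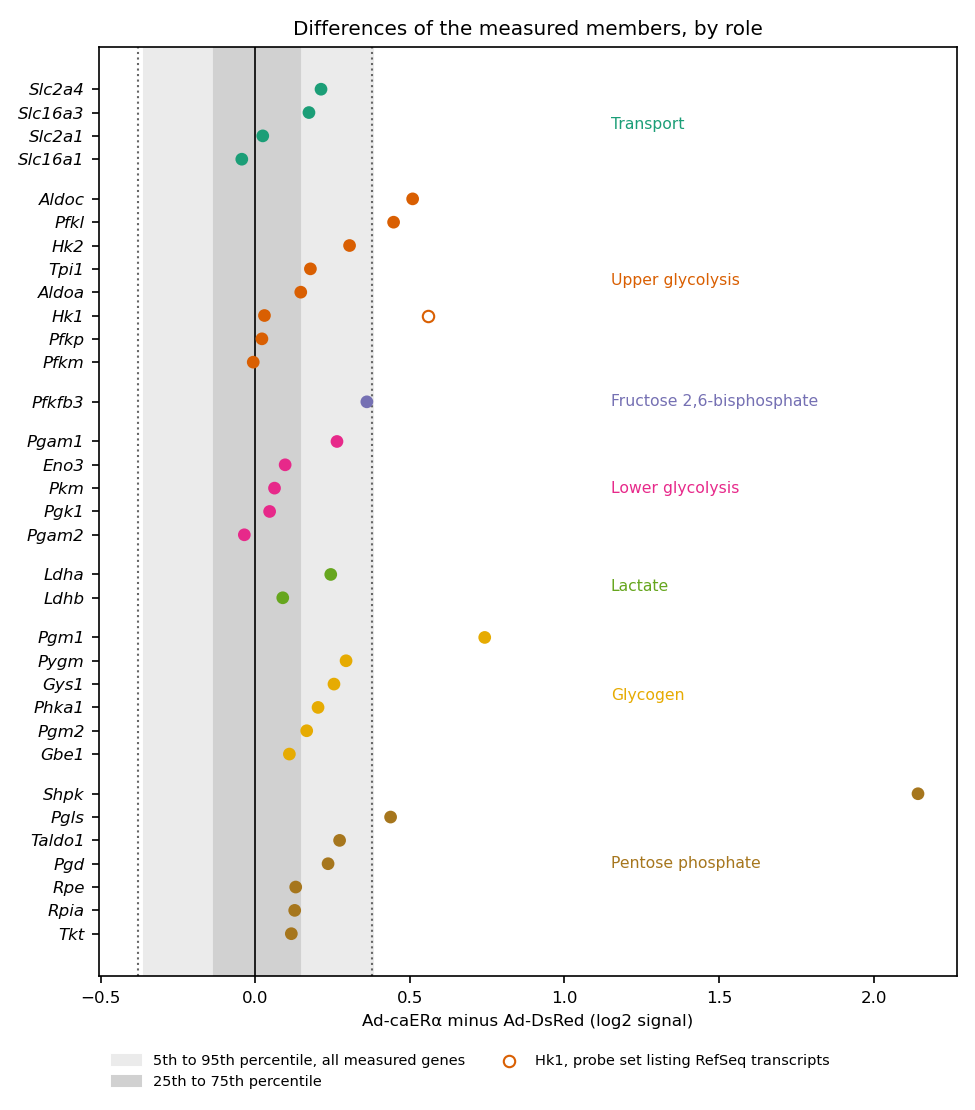
Ad-caERα minus Ad-DsRed (log2 signal, x axis) of the 33 measured members, 1 point per gene, coloured by role, over the spread of all measured genes (shaded); dotted lines mark 1.3-fold. Shpk, Pgm1, Aldoc, Pfkl and Pgls lie past the upper dotted line and no member lies past the lower one; the open circle is a further probe set of Hk1, at 0.56.

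Transport across the plasma membrane showed the smallest differences together with the lower part of glycolysis. The 4 transporters had a median difference of 0.099 and 0 of them met the 1.3-fold rule. Slc2a4, the insulin-responsive glucose transporter GLUT4 of muscle and fat, was dim at 5.85 (Ad-DsRed) and 6.06 (Ad-caERα). Pairs of log2 signals below are given in this order. Slc2a1, the basal glucose transporter GLUT1, was at 11.16 and 11.19. Slc16a3, the lactate exporter MCT4 of glycolytic fibres, was at 6.80 and 6.98, and the monocarboxylate transporter gene Slc16a1 (MCT1) at 10.63 and 10.59. The differences of Slc2a1 (0.0245) and Slc16a1 (-0.043) were far below the same-gene SD.

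In the upper part of glycolysis 7 of 8 measured genes were above 0, with a median difference of 0.16, and 2 met the 1.3-fold rule. Pfkl, the liver-type subunit of phosphofructokinase, read 10.06 and 10.51, a 1.36-fold difference. The other subunits stayed level: Pfkm, the muscle type, was at 10.03 in both arrays (a difference of -0.0063) and Pfkp, the platelet type, at 10.18 and 10.20. Aldoc, the brain-type aldolase, was dim at 5.44 and 5.95 (1.42-fold higher), only slightly above the floor of 5.11, whereas the muscle-type Aldoa was at 12.66 and 12.81. Hk2, the insulin-regulated hexokinase of muscle, was at 8.56 and 8.87 (1.24-fold higher), and the triose phosphate isomerase gene Tpi1 at 12.31 and 12.49. Of the enzymes that set fructose 2,6-bisphosphate, an activator of phosphofructokinase, Pfkfb3 was measured, at 6.83 and 7.19. Its 1.28-fold difference was the nearest below the 1.3-fold rule, and Pgls, with a difference of 0.44, the nearest above.

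Hk1, the hexokinase found in most tissues, gave different answers by probe set. The brighter one, which the selection rule takes, was at 12.79 and 12.82, a difference of 0.030. It lists 1 GenBank sequence and no RefSeq transcript of Hk1, and that sequence is also listed by 16 probe sets that name the ribosomal protein gene Rpl17 beside Hk1, whose differences ran from 0.072 to 0.12. The other Hk1 probe set lists RefSeq transcripts of the gene and was at 10.38 and 10.94, a difference of 0.56 or 1.47-fold higher. With this probe set, an alternative chosen after seeing the data, 6 members met the 1.3-fold rule, and the upper glycolysis median was 0.24. The remaining 4 members with several single-gene probe sets (Pgk1, Pgam1, Pkm and Ldhb) gave differences close to each other, and only Ldhb had readings on both sides of 0. Some probe sets of Pgk1 and of Pgam1 had identical values on both arrays, so these are not separate readings.

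Lower glycolysis was nearly level. Of 5 measured genes 4 were above 0, with a median difference of 0.063, and 0 met the 1.3-fold rule. Pgam1, the phosphoglycerate mutase found in most tissues, had the highest difference (0.26), at 11.61 and 11.87, while its muscle isozyme Pgam2 was at 7.88 and 7.84. Pgk1, phosphoglycerate kinase, was at 12.20 and 12.24, the muscle enolase gene Eno3 at 12.31 and 12.41, and the pyruvate kinase gene Pkm at 11.71 and 11.78. Ldha, the lactate dehydrogenase subunit that favours lactate formation, was at 12.67 and 12.92 (1.18-fold higher). The heart-type subunit Ldhb was at 7.05 and 7.14, and a second probe set of it had a difference of -0.017.

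Glycogen genes were all on the same side. The 6 measured members were above 0, with a median difference of 0.23, and 1 met the 1.3-fold rule. Pgm1, phosphoglucomutase, which interconverts glucose 1-phosphate and glucose 6-phosphate between glycogen and glycolysis, was at 9.64 and 10.38, a 1.67-fold difference. The gene lies on chromosome 4 (GRCm38.p6) and was formerly called Pgm2 in the mouse. Its relative now called Pgm2, on chromosome 5, which acts mainly on pentose phosphates, was at 8.87 and 9.03. Pygm, the muscle glycogen phosphorylase that breaks glycogen down, was at 9.50 and 9.79 (1.23-fold higher), and Gys1, the muscle glycogen synthase that builds it, at 10.23 and 10.49 (1.19-fold higher), so the opposing enzymes differed by like amounts. Phka1, a regulatory subunit of phosphorylase kinase, was at 8.67 and 8.87, and the branching enzyme gene Gbe1 at 8.22 and 8.33.

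All 7 measured pentose phosphate genes were above 0, with a median difference of 0.24, and Shpk and Pgls met the 1.3-fold rule. In the oxidative arm, Pgls, 6-phosphogluconolactonase, was at 7.90 and 8.34, and Pgd, the next enzyme and a source of NADPH, at 10.11 and 10.35 (1.18-fold higher). In the non-oxidative arm, Taldo1, transaldolase, was at 8.07 and 8.35 (1.21-fold higher), and the pentose phosphate isomerase and epimerase genes Rpia (7.61 and 7.74) and Rpe (8.51 and 8.64) differed by 0.13 each. Tkt, transketolase, was at 7.41 and 7.53. Without Shpk the group's median was 0.18.

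Shpk stood apart from every other member. It encodes sedoheptulokinase, also known as CARKL, which phosphorylates free sedoheptulose to sedoheptulose 7-phosphate and so links it to the non-oxidative arm. Its log2 signal was 5.99 with Ad-DsRed and 8.13 with Ad-caERα, a 4.42-fold difference, both above the floor of 5.11. The Ad-DsRed value lay below a stricter floor, the 99th percentile of the receptor probe sets (6.16), so the size of the fold is uncertain. The difference of Shpk was the 11th highest of the 13556 measured genes, and the member next in order, Pgm1, was 141st. The members were chosen with earlier results of these data known, so these ranks are descriptions only. Shpk was read by 1 probe set, so no second probe set bears on it.

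The genes around Shpk on mouse chromosome 11 were higher as well. Shpk spans chr11:73199132-73224511 (GRCm38.p6). Of the 2 nearest annotated genes on each side, the pseudogene Gm16021 had no probe set here and the other 3 met the 1.3-fold rule. Ctns, the lysosomal cystine transporter cystinosin, is read from the opposite strand, its gene record 17 bases apart from that of Shpk, and was at 9.36 and 10.67, 2.48-fold higher. Tax1bp3, a small PDZ-domain protein gene 17.1 kb away, was at 11.78 and 12.34 (1.47-fold higher). Trpv1, the capsaicin-gated cation channel gene 9.64 kb away on the other side, was at 5.27 and 6.02 (1.69-fold higher), which is close to the floor in Ad-DsRed.

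A wider window was chosen after these values were seen. Within 200 kb of Shpk, 9 other genes were measured, with a median difference of 0.56. Above 0 were 7 of them, and 6 met the 1.3-fold rule upwards (50.2% and 5.08% of all measured genes). Besides Ctns, Tax1bp3 and Trpv1 these were P2rx5, an ATP-gated channel gene (7.96 and 8.54), Trpv3, a warmth-sensing channel gene (5.54 and 5.94), and Aspa, which encodes aspartoacylase and lies 80.5 kb away (6.25 and 7.33, 2.12-fold higher). Trpv3 was dim on both arrays, not far above the floor of 5.11. Both values of Trpv1 and of Trpv3 lay below the floor at the 99th percentile (6.16), at which neither gene would count as measured. Emc6, a subunit of an endoplasmic reticulum membrane complex, had a difference of 0.24. The measured genes farther out on the side of Ctns, Haspin (-0.12) and Ncbp3 (-0.086), were slightly below 0. On the other side the next gene beyond Aspa, Spata22, was below the floor on both arrays, and no gene past it was measured, so the extent of the higher genes on that side is not known.

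**Figure D3:**
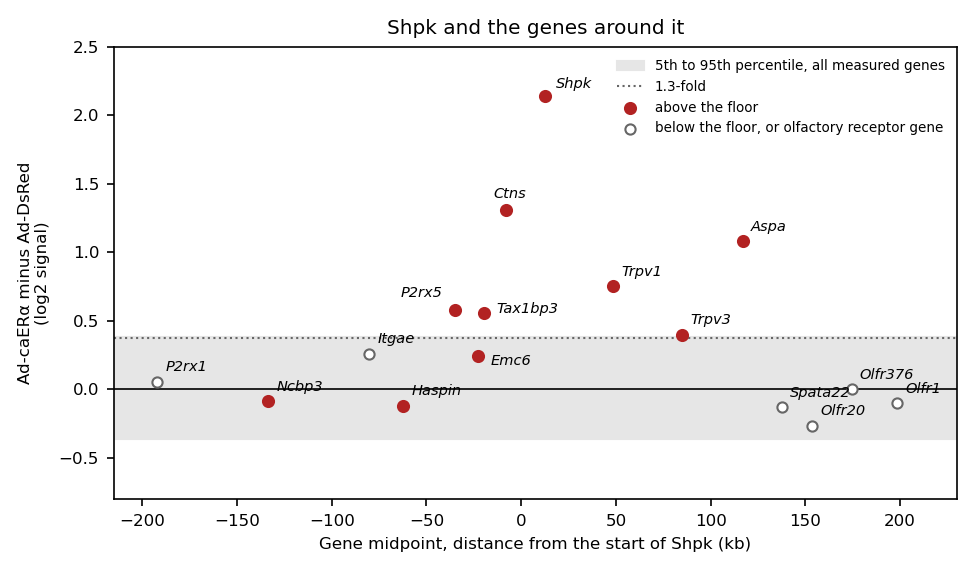
Ad-caERα minus Ad-DsRed (log2 signal, y axis) of the genes within 200 kb of Shpk, plotted by the distance of the gene's midpoint from the start of Shpk (kb, x axis), 1 point per gene, with open circles for genes below the floor on both arrays or olfactory receptor genes. Shpk (2.14), Ctns (1.31) and Aspa (1.08) are highest, every measured gene from P2rx5 to Aspa lies above 0, and Haspin (-0.12) and Ncbp3 (-0.086) lie below it.

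Medians around the other members past the rule were lower than around Shpk. Measured neighbours within 200 kb had median differences of -0.0001 around Pgm1 (4 genes), -0.018 around Pfkl (9 genes), -0.011 around Pgls (16 genes) and 0.13 around Aldoc (20 genes). Around Aldoc 17 of the 20 neighbours were above 0 and 4 met the 1.3-fold rule upwards, against 0 around the other 3. Downwards the rule was met by 2 genes around Pgls, 1 around Pfkl and 0 around Pgm1 and Aldoc. Over all measured genes 5.08% met it upwards and 4.34% downwards. Around Hk1 the median of 8 genes was 0.083, but Srgn, which encodes the proteoglycan serglycin and lies 114 kb away, was at 7.30 and 10.50, 9.25-fold higher. Hkdc1, a hexokinase relative 3.22 kb from Hk1, went the other way, at 5.52 with Ad-DsRed and below the floor with Ad-caERα, at least 1.33-fold lower. Whether nearby genes differ together more often than distant ones over the whole genome was not tested.

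The sequences before the start sites were searched because most members lay on the same side and the receptor binds DNA. Windows of the 250 bases before each annotated start site were taken from RefSeq (GRCm38.p6), 54 windows for 38 members, and the same windows of all 32851 annotated starts served as background. Each motif was searched on both strands. The palindromic estrogen response element, GGTCA and TGACC with any 3 bases between them, was in 0 of the 54 windows and in 0.0639% of all windows. A string this rare would seldom appear in 54 windows of any genes, so its absence does not set the members apart. The single receptor-binding hexamer AGGTCA was in 8 of 54 (14.8%) and in 14.0% of all. The core bound by hypoxia-inducible factors, ACGTG, was in 17 of 54 (31.5%), from 14 genes, and in 16.6% of all. The E-box CACGTG, which contains ACGTG, was in 4 of 54 (7.41%) and in 6.02% of all. Windows of 1 gene can overlap, so these shares are descriptions. Members with ACGTG in a window and members without it had median differences of 0.17 (14 genes) and 0.15 (18 genes). For AGGTCA the medians were 0.089 with it (5 genes) and 0.20 without (27 genes), and for CACGTG 0.12 with it (4 genes) and 0.17 without (28 genes).

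The windows of Shpk and Ctns are shown because these neighbours had the highest differences of the locus, and that of Pgm1 because it was next among the members. Each is written 5′ to 3′ on the gene's strand and ends at the base before the start site, with the searched motifs in capitals. The Shpk window (chr11:73199232-73199481, plus strand) held none of the 4 motifs. Ctns has 2 annotated windows, both with AGGTCA, and 1 is shown. The window shown (chr11:73199020-73199269, minus strand) held AGGTCA 32 to 27 bases before the start and shares 38 bases with the Shpk window, read on the other strand. The Pgm1 window (chr4:99929201-99929450, plus strand) held ACGTG at 208 to 204 and at 181 to 177 bases before the start. The annotated Shpk gene begins 350 bases before this start site, so the gene record covers the window. The Ctns record likewise runs past the start site used here, to base 73199115, and the AGGTCA lies within it.
Shpk: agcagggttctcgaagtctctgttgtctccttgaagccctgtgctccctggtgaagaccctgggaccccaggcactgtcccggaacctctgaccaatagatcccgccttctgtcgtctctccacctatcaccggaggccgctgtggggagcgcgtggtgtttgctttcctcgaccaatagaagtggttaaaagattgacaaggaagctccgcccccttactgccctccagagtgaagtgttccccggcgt
Ctns: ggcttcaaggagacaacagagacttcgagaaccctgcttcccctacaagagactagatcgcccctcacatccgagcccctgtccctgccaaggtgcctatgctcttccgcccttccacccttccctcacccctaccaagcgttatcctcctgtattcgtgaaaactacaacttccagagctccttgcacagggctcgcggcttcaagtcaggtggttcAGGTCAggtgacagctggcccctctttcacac
Pgm1: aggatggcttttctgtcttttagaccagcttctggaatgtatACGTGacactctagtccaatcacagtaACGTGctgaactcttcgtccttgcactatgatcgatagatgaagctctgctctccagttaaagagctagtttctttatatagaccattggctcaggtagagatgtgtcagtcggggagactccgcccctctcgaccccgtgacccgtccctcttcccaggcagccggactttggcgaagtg
A match is a string of letters and no measured binding site, and a window without one leaves the rest of the locus unread.

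Some related proteins differed by unequal amounts. Of 12 pairs compared 10 had both members measured, and 3 differed from each other by more than 0.37, which is 2 SD of such a gap between 2 probe sets of the same gene. Those were Pgm1 over Pgm2 (by 0.58), Pfkl over Pfkm (by 0.45) and Pfkl over Pfkp (by 0.43), the last 2 of which share Pfkl. The other 7 pairs were within that spread. The receptor probe sets had a wider SD (0.22). By that SD the limit for a gap would exceed even that of Pgm1 over Pgm2, so no pair would pass it. Aldoc over Aldoa followed at 0.36 and Pgam1 over Pgam2 at 0.30. Hk2 over Hk1 was 0.28 by the selection rule, and with the Hk1 probe set that lists RefSeq transcripts Hk1 was the higher. The muscle isozymes Pfkm, Aldoa and Pgam2 had the lower difference of their pairs, and of these gaps only that of Pfkm to Pfkl passed 0.37. Other muscle forms had the higher difference. Slc2a4 (0.21) was over Slc2a1, Slc16a3 over Slc16a1 (by 0.22) and, by the selection rule, Hk2 over Hk1. Ldha was over the heart-type Ldhb by 0.16. The pairs thus gave no single direction for muscle forms.

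**Figure D4:**
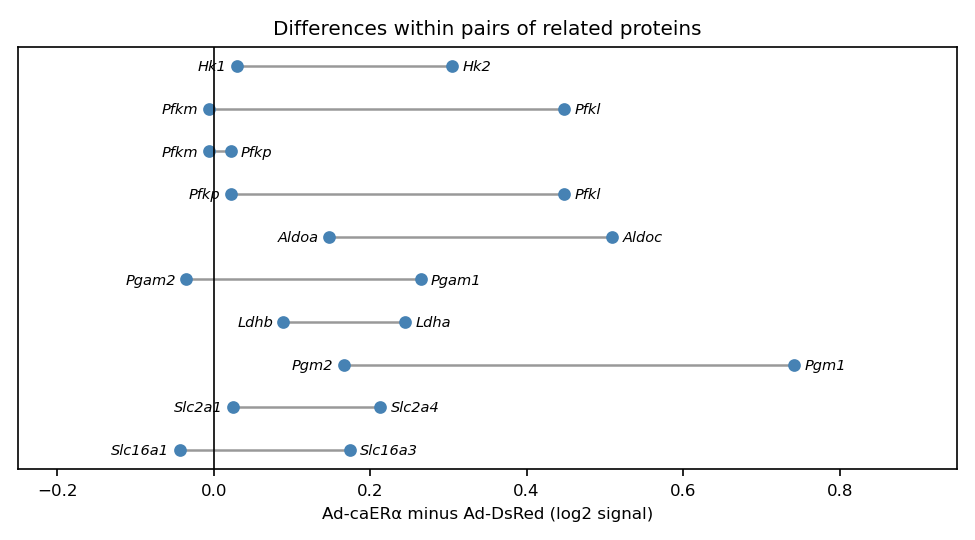
Ad-caERα minus Ad-DsRed (log2 signal, x axis) of both genes of each of the 10 pairs of related proteins with both members measured, 1 pair per row joined by a grey line. Pgm1 and Pgm2, and Pfkl and each of its relatives, are farthest apart, and Pfkm and Pfkp are closest.

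Further genes of sugar metabolism, from lists of pathway members, did not share the members' shift evenly. The 13 measured further glycolytic genes had a median difference of 0.053, with 0 higher and 1 lower by the 1.3-fold rule. The neuronal enolase gene Eno2 (0.33) and the glycerol phosphate dehydrogenase gene Gpd1 (0.29) were highest, and Hkdc1 (-0.52) and the mitochondrial glycerol phosphate dehydrogenase gene Gpd2 (-0.27) lowest. Of 20 further glycogen genes 9 were above 0, with a median of -0.016. Epm2a, the glycogen phosphatase laforin, was 1.47-fold higher at 6.25 and 6.80, and Pygb, the brain phosphorylase, was at 0.22. Pgm5, a phosphoglucomutase relative of adherens junctions and muscle attachment sites, was at 9.16 and 8.18, 1.96-fold lower. Ppp1r3d, a subunit that targets protein phosphatase to glycogen, had a difference of -0.34.

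Genes that move substrates in and out showed a few larger differences. Among 10 further transport genes the median was 0.099, and Emb, which encodes embigin, a partner protein of lactate transporters, was below the floor with Ad-DsRed (4.43) and at 5.79 with Ad-caERα, hence at least 1.6-fold higher. Slc2a8 was at 0.33, Slc2a9 at -0.079 and Slc2a6 at -0.26. Pyruvate entry into the mitochondrion had a median of 0.070 over 12 genes, and 3 met the 1.3-fold rule upwards (5.08% of all measured genes). They were Pdk1 (8.42 and 9.10) and Pdk4 (8.64 and 9.09), kinases that inhibit pyruvate dehydrogenase, and Mpc1, a subunit of the pyruvate carrier (0.42). Ldhd (-0.068) and Pdha1 (-0.076) were lowest.

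In the list of further pentose phosphate and ribose genes the median was 0.11 over 9 genes. Idnk, a gluconate kinase gene that feeds the oxidative arm, was 1.41-fold higher at 8.42 and 8.91, Prpsap1 was at 0.20, and the phosphoribosyl pyrophosphate synthetase genes Prps2 (-0.052) and Prps1 (-0.025) were lowest. Of 4 measured gluconeogenic genes, Pcx, pyruvate carboxylase, was 1.37-fold higher, G6pc3 was at 0.27, Pck2 at 0.19 and Pck1 at -0.14. Hexosamine and polyol genes had a median of -0.053 over 6 genes, from Gnpnat1 (0.23) and Uap1 (0.071) to Khk (-0.13) and Oga (-0.17). Over all further lists together, with the regulators and hypoxia targets given at the end, the median was 0.042 over 110 measured genes. Of these, 64 were above 0 (50.2% of all measured genes). By the 1.3-fold rule 11 were higher and 5 lower (5.08% and 4.34% of all measured genes).

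**Figure D5:**
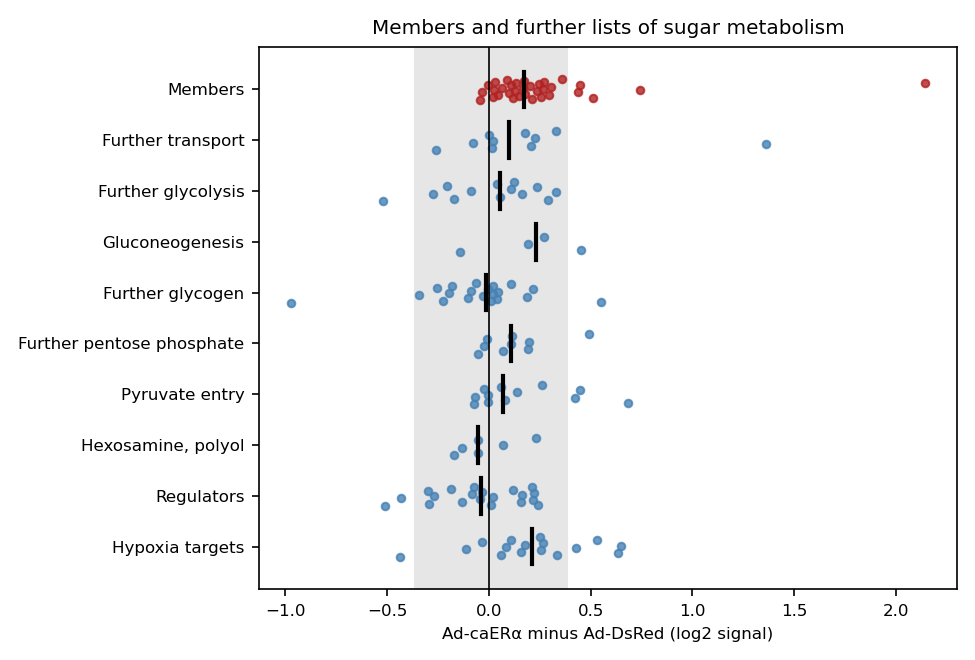
Ad-caERα minus Ad-DsRed (log2 signal, x axis) of the 33 measured members (top row) and of the measured genes of 9 further lists, 1 point per gene, with each list's median as a black bar and the 5th to 95th percentile of all measured genes shaded. Emb, the farthest right of the further genes, was below the floor with Ad-DsRed. The members' median of 0.17 lies right of 0, while the medians of further glycogen genes (-0.016) and hexosamine and polyol genes (-0.053) lie left of it.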

How the data were processed

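Total RNA (150 ng) of 1 culture per vector was hybridised to Affymetrix arrays. Each deposited value is a log2 signal of 1 probe set, from Affymetrix Expression Console with RMA per the submitters' processing notes, with no version in the sources used here. RMA equalises the arrays' distributions, which hides any change in total mRNA, and compresses low signals. The column medians were 6.05 (Ad-DsRed) and 6.02 (Ad-caERα), genes were not centred, and the arrays' number limits the precision.

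Of 35556 probe sets, the platform annotation named 1 gene for 21789, several for 1621 and none for 12146. All 34 members matched RefSeq gene identifiers. The probe set with the highest mean was used per gene. The floor (5.11) is the 95th percentile of the higher value over 1212 olfactory and vomeronasal receptor probe sets, and receptor genes were left out. Every member is accounted for. In each further list the 2 highest and 2 lowest measured genes, and those past 2-fold, are named. Mpc1, Hif1a, Arnt, Epas1 and some neighbours of members were chosen after their values were seen. Members, lists and the fold rule were chosen with earlier results of these data known. The code was tested on simulated data. Python 3.11.15, pandas 2.3.3, numpy 2.4.6, statsmodels 0.14.6 and matplotlib 3.10.9 were used.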

Additional observations from a re-analysis of the deposited data

How the results depend on the processing

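No paired analysis was possible because there is only 1 array of each kind, so leaving out a replicate was impossible too; the spread between cultures is unknown. The count of 5 members at least 1.3-fold higher was 10 at 1.2-fold (11.1% of all measured genes), 2 at 1.5-fold (1.82%) and 1 at 2-fold; the count of lower members was 0 at every one of these thresholds. With the floor at the 99th percentile Aldoc and Slc2a4 were not measured and 4 members were higher. The transport median was then 0.0245 over 3 genes. The other floors, averaging of probe sets, centring and the loess correction left the same 5 genes. The members' median stayed between 0.14 and 0.18 and was 0.25 as a mean. Of 65 recalculated medians 64 moved by less than 0.13, the same-gene SD; the exception was the pentose phosphate group, at 0.50 as a mean, which Shpk sets. Of 229 recalculated member differences 227 did so. The others were Hk1, at 0.29 over both probe sets and 0.56 for the probe set listing RefSeq transcripts, a setting chosen after seeing the data. Many of the 229 could not have moved that far, so their number is no measure of robustness. The floor settings leave a measured member's difference unchanged, and centring moves every member by the same -0.036. Only 5 members, Hk1 among them, have more than 1 probe set for the probe-set settings to act on.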

Other observations

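Regulators of sugar metabolism showed small differences in both directions. Of 20 measured regulators 9 were above 0 in Ad-caERα, with a median of -0.038, and 0 were higher and 2 lower by the 1.3-fold rule. The lowest were Six4, a homeodomain factor of muscle glycolytic genes (9.80 in Ad-DsRed and 9.29 in Ad-caERα), and the coactivator gene Ppargc1a (5.86 and 5.43). The highest were Mlx (0.24), partner of the glucose-sensing factors, and Vhl (0.22), which targets hypoxia-inducible factors for degradation. Hif1a was at 11.12 and 11.29, Arnt at 10.88 and 10.80, and Epas1, near the floor, at 5.41 and 5.12.

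Known targets of hypoxia-inducible factors that are not glycolytic had a median of 0.21 over 16 measured genes, with 13 above 0 (50.2% of all measured genes). By the 1.3-fold rule 4 were higher and 1 lower (5.08% and 4.34% of all measured genes). Bnip3, a mitophagy receptor, was at 10.04 and 10.67 (1.55-fold higher). Car9, carbonic anhydrase 9, was at 5.46 and 6.11 (1.57-fold higher), both below the floor at the 99th percentile (6.16). Angptl4 (-0.44) and Kdm3a (-0.11) were lowest.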
